A study of Homo sapiens with 12 samples.

Results

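The plasminogen activator system was followed through 6 human genes, the activators PLAU and PLAT, the urokinase receptor PLAUR, and the serpins SERPINB2, SERPINB7 and SERPINE2. They were taken by gene name from the deposited table and are 6 of its 57773 features, spike-in RNAs left aside. All 6 had enough reads to be among the 13782 genes tested. The genes were chosen by their FPM levels and differences between groups in these same libraries. Their fold changes are therefore given as a description, with no p-value. For these 6 genes, the words called, passed and lost say only where a value stood against the threshold of the test under a given setting. They are not evidence of a difference, because the same differences chose the genes. Levels came from ES-2, a single established cell line derived from an ovarian cancer, after knockdown of IGF2BP1 by siRNA (group siI1), of IGF2BP2 (siI2) or of IGF2BP3 (siI3), or after control siRNAs (siC). Each group held 3 libraries of total RNA depleted of ribosomal RNA, and the labels name no further treatment or genetic change in any group. IGF2BP1, IGF2BP2 and IGF2BP3 are RNA-binding proteins that influence the stability, transport and translation of mRNAs.

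Urokinase and tissue plasminogen activator, the products of PLAU and PLAT, are serine proteases that cleave the proenzyme plasminogen to plasmin, which digests fibrin and other matrix proteins and activates further proteases. PLAUR, held in the membrane by a lipid anchor, binds urokinase at the cell surface. Serpins inhibit proteases by trapping them in a covalent complex. SERPINB2 (PAI-2) and SERPINE2 (protease nexin-1) act on plasminogen activators, whereas SERPINB7 (megsin) is a clade B serpin best known from skin and from the mesangial cells of the kidney.

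Levels are in FPM, the depth-normalised fragment unit of the table, and the libraries held 3299360 to 11304060 reads, so that 3 reads were worth 0.324 to 0.727 FPM. Nothing in the labels tells whether replicate libraries stem from different cultures, so the p-values reflect only the spread among these libraries, which may be technical. In these bulk samples, fewer cells with a transcript and less of it per cell cannot be told apart. Each siRNA lowered its own target, IGF2BP1 to 25.2% of siC in siI1, IGF2BP2 to 16.8% in siI2 and IGF2BP3 to 19.2% in siI3, with no overlap between the knockdown and siC libraries. IGF2BP3 was also below every siC library in siI1 and siI2, at 64.7% and 63.5% of siC, though not past the test (log2 fold changes of -0.58 and -0.63, SE 0.28 each). Of the ovarian and epithelial markers, KRT7, KRT8 and KRT18 were expressed in all 12 libraries (KRT7 at 347 to 939 FPM), while PAX8 reached 2.91 FPM at most, EPCAM, CDH1 and KRT19 did not exceed 6 reads, and the clear cell marker NAPSA reached 11 reads at most. The leukocyte, erythroid and hepatocyte markers PTPRC, CD3E, HBB and ALB stayed at 5 reads or fewer, CD14 and VWF at 15 reads or fewer, and the endothelial cadherin CDH5 lay between 54.8 and 149 FPM. MUC16 reached 10.6 FPM at most and WT1 13 reads at most. The 9 ovarian and epithelial markers summed to 1158 to 1466 FPM in siI1, 817 to 1162 in siI2 and 504 to 788 in siI3, against 656 to 1055 FPM in siC. KRT8 averaged 147, 72.3 and 52.2 FPM in siI1, siI2 and siI3, against 44.0 FPM in siC. In the same order, KRT7 averaged 874, 643 and 488 FPM, against 594 FPM in siC. KRT18 averaged 311, 211 and 123 FPM, against 158 FPM in siC. In siI3, KRT7 and KRT18 thus averaged below siC and KRT8 above it. The 4 mesenchymal markers VIM, CDH2, FN1 and ZEB1 summed to 463 to 862 FPM in siI1, 375 to 749 in siI2 and 351 to 655 in siI3, all below the 1039 to 1233 FPM in siC. VIM averaged 484, 353 and 338 FPM in siI1, siI2 and siI3, against 914 FPM in siC, and ZEB1 12.9, 10.6 and 17.0 FPM, against 33.7 FPM in siC. CDH2 and FN1 did not fall in every knockdown. In the same order, CDH2 averaged 67.2, 47.2 and 41.4 FPM, against 54.8 FPM in siC. FN1 averaged 51.8, 163.8 and 59.2 FPM, against 133.7 FPM in siC. The part of these marker differences in the results was not tested. siC replicates 1 and 3 stood apart from the other libraries in how levels followed the GC content of transcripts. The slope (log2 per 10 points of GC, relative to the mean of all libraries) was -0.0933 to 0.211 in the 9 knockdown libraries, against -0.459 and -0.432 in siC replicates 1 and 3 and 0.0252 in siC replicate 2. SERPINE2, SERPINB2 and SERPINB7 have transcripts poor in GC, at 41.0%, 41.0% and 40.5%, which places them between the 15.9 and 17.9 percentiles of the genes tested. PLAT stood at 45.6%, PLAU at 54.0% and PLAUR at 55.7%. A second set of fold changes, corrected for GC content and transcript length, is therefore given beside the comparisons with siC.

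Promoter sequences are shown for SERPINB2 and SERPINB7, which were lowest together in siI1, and for PLAUR, which was highest in siI3. They come from RefSeq (GRCh38.p14), whose table held 9 promoters for 5 of the 6 genes, all but PLAT. Each runs from 250 bases before to 50 bases after a transcript start, and for both serpins only the last 200 bases are printed. Capitals mark matches on either strand to the AP-1 motif TGANTCA, the cAMP response element half-site TGACG and the TATA box TATAAA, none of which overlap here. The transcript start that ES-2 cells use was not determined.

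SERPINB2, chr18:63887555-63887754, plus strand: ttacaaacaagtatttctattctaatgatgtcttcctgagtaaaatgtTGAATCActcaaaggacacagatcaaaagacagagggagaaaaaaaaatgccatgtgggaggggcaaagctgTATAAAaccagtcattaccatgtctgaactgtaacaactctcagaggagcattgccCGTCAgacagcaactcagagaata

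SERPINB7, chr18:63777631-63777830, plus strand: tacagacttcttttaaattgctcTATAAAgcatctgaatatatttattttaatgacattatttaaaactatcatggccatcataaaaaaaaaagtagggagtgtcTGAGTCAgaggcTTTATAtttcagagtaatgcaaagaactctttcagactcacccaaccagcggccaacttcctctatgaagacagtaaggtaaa

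PLAUR, chr19:43670120-43670419, minus strand: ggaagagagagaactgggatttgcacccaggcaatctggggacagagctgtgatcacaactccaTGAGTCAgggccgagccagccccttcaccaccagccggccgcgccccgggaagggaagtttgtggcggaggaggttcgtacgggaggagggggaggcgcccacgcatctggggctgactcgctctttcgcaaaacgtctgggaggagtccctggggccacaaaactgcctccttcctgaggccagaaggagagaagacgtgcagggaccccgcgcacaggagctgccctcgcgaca

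The SERPINB2 promoter held an AP-1 match 102 bases upstream of the start and a TATA box 30 bases upstream. The SERPINB7 promoter shown held an AP-1 match 45 bases upstream and a TATA box match on the minus strand 33 bases upstream. It also held a TATA box match on the plus strand 127 bases upstream. A further AP-1 match lay 206 bases upstream, before the printed bases. Another RefSeq promoter of SERPINB7 held AP-1 matches 154 and 39 bases upstream, and the remaining SERPINB7 promoter held none. PLAUR held its AP-1 match 186 bases upstream. AP-1 matches thus occurred in 4 of the 9 promoters and 3 of the 5 genes, where 7.71% of all 35116 RefSeq promoters of this length hold one. The TATA box occurs in 11.5% of them and the half-site in 24.6%. One PLAU promoter held none of these but carried the SP1 motif GGGCGG 66, 51 and 40 bases upstream, a motif found in 44.95% of all promoters. A match is a stretch of letters and not a measured binding site. The motifs were chosen with earlier results of these data known, so no enrichment is read from these shares.

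The 3′ untranslated regions were searched for the AU-rich pentamer ATTTA, a sequence known from short-lived mRNAs, on the sense strand in the longest annotated version of each gene (GENCODE release 29). SERPINB2 held 4 pentamers in 585 bases, or 6.84 per kilobase. Of the genes tested, 11258 had such a region. The density of SERPINB2 stood at the 98.1 percentile of these, very short regions left out. PLAU, PLAT and SERPINE2 held 2 each, SERPINB7 held 1 and PLAUR none. The longer core TATTTAT, present in 36.1% of all genes, is shown in capitals with 8 bases on each side for SERPINB2, which held 1, and for both matches in PLAU. PLAT also held 2 such cores and SERPINB7 1, and SERPINE2 and PLAUR held none.

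SERPINB2, base 278 of the region: tactttgtTATTTATtattttat

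PLAU, base 854 of the region: acactgaaTATTTATatttcact

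PLAU, base 874 of the region: actattttTATTTATatttttgt

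The let-7 seed match CTACCTC, which 12.98% of all genes hold, was in the 3′ untranslated region of none of the 6 genes. Let-7 is the miRNA family best known to act on mRNAs that IGF2BP1 binds.

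**Figure D1:**
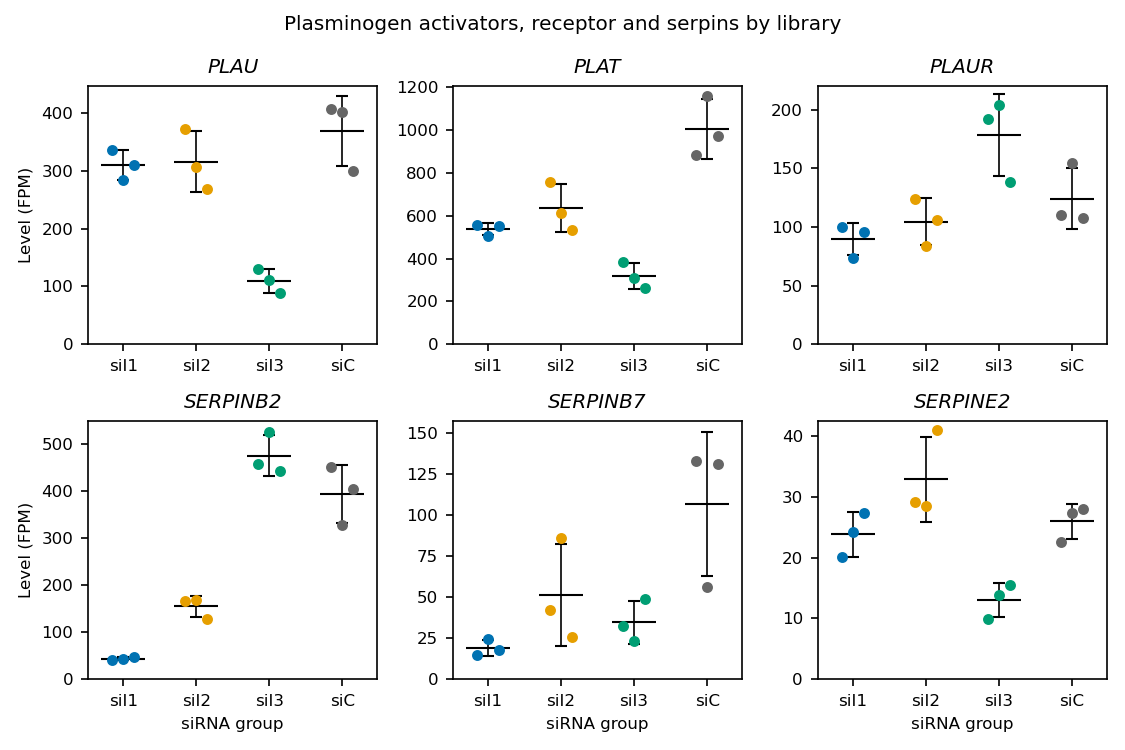
Levels of the 6 genes in each of the 12 libraries (FPM, linear axes from 0) by siRNA group. Points are libraries, long bars group means and whiskers the SD (n = 3). PLAU and SERPINE2 were lowest in siI3, SERPINB2 was lowest in siI1, and PLAT was highest in siC.

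The urokinase gene PLAU (ENSG00000122861, chromosome 10) was low in the IGF2BP3 knockdown alone among the 3 knockdowns. It had 130, 112 and 88.6 FPM in siI3, against 406, 402 and 299.8 FPM in siC, and the groups did not overlap. This was 29.8% of siC, a log2 fold change of -1.74 (SE 0.20) on the log2(FPM + 1) scale used throughout, and -1.82 (SE 0.14) after the correction. PLAU had 337, 285 and 311 FPM in siI1 and 372, 306 and 268 FPM in siI2. Both of these groups overlapped siC, with log2 fold changes of -0.24 and -0.23 (SE 0.20 each), and neither passed the test before or after the correction (-0.40 and -0.29). PLAU shares 916 exonic bases with C10orf55 on the opposite strand, and the sources used here do not give strand use in counting. C10orf55 lay at 14.4 ± 4.01 FPM in siI1, 8.47 ± 3.56 in siI2, 5.62 ± 2.28 in siI3 and 6.59 ± 1.59 in siC (SD, n = 3), small beside PLAU in every group.

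The tissue activator gene PLAT (ENSG00000104368, chromosome 8) was below every siC library in all 3 knockdowns. It had 386, 309 and 264 FPM in siI3, 555, 504 and 551 FPM in siI1, and 757, 614 and 534 FPM in siI2, against 885, 1161 and 972 FPM in siC. The siI3 libraries were the lowest, and the siI1 and siI2 libraries overlapped each other between siI3 and siC. In siI3 PLAT fell to 31.8% of siC (log2 fold change -1.66, SE 0.21, or -1.26 after the correction). In siI1 it fell to 53.4% (-0.90, SE 0.21), a call lost after the correction (-0.61, SE 0.20) and also without siC replicate 3, siI1 replicate 1 or siI1 replicate 3. In siI2 it averaged 63.1% of siC and did not pass the test (-0.67, SE 0.21, or -0.34 after the correction). The rank of PLAT below siC was the same in the 9 knockdown libraries, but the size of the difference in siI1 and siI2 moved with the libraries and the correction used.

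The receptor gene PLAUR (ENSG00000011422, chromosome 19) was on average highest in siI3, where PLAU and PLAT were lowest. It had 192, 204 and 138 FPM in siI3, against 110, 154 and 108 FPM in siC, and siI3 replicate 3 lay within the siC range. The log2 fold change was 0.52 (SE 0.22) and did not pass the test, although it passed without siC replicate 2, without siI3 replicate 3 and by DESeq2 (0.41 after the correction, not passed). PLAUR had 99.5, 73.9 and 95.4 FPM in siI1, all below siC, and 124, 84.2 and 106 FPM in siI2, which overlapped siC. Neither passed the test (-0.46 and -0.24, SE 0.22 each), but the corrected difference of siI1 did (-0.64, SE 0.16), unlike that of siI2 (-0.32).

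SERPINB2 (ENSG00000197632, chromosome 18), the intracellular and secreted inhibitor of urokinase, had the largest fold change of the 6 genes. It had 40.4, 43.5 and 47.0 FPM in siI1 and 167, 168 and 129 FPM in siI2, against 451, 328 and 405 FPM in siC. These groups did not overlap, with siI1 lowest, siI2 between and siC highest. SERPINB2 fell to 11.1% of siC in siI1 (log2 fold change -3.14, SE 0.18) and to 39.2% in siI2 (-1.35, SE 0.18). The corrected values were smaller, -2.63 and -0.86 (SE 0.13 each), and both passed the test. In siI3 it had 457, 525 and 443 FPM, which overlapped siC, with a log2 fold change of 0.28 (SE 0.18) that did not pass the test. The corrected value in siI3 was 0.79 (SE 0.13) and passed, so whether SERPINB2 was called in siI3 rested on the correction. SERPINB2 shares 547 exonic bases with SERPINB10 on the same strand, which had 5 reads at most in any library.

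SERPINB7 (ENSG00000166396, chromosome 18) averaged below siC in all 3 knockdowns and was uneven within groups. It had 14.6, 24.5 and 17.8 FPM in siI1, 42.4, 86.0 and 25.9 FPM in siI2, and 32.3, 23.0 and 48.6 FPM in siI3, against 133, 56.2 and 131 FPM in siC. The siI1 and siI3 libraries all lay below siC, and siI2 replicate 2 lay above siC replicate 2. SERPINB7 fell to 17.7% of siC in siI1 (log2 fold change -2.36, SE 0.40, or -1.84 after the correction), and this call passed with each library left out in turn. It fell to 32.4% in siI3 (-1.56, SE 0.40). That call was lost after the correction (-1.05, SE 0.31) and without siC replicate 1, siC replicate 3, siI3 replicate 1 or siI3 replicate 2. In siI2 it averaged 48.2% of siC and did not pass the test (-1.11, SE 0.40, or -0.61 after the correction), but it passed without siC replicate 2 or siI2 replicate 2. Within each group, siI1 and siI3 included, the library with the highest SERPINB7 level was the one with the lowest GC slope. These were siC replicate 1, siI1 replicate 2, siI2 replicate 2 and siI3 replicate 3. In siC, replicate 3 was close to replicate 1 in both level and slope. The part of GC content in the level of SERPINB7 was not tested.

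SERPINE2 (ENSG00000135919, chromosome 2), which encodes the secreted inhibitor of thrombin and urokinase, was lowest in siI3. It had 9.96, 13.8 and 15.4 FPM in siI3, against 22.6, 27.3 and 28.0 FPM in siC, with no overlap. This was 50.3% of siC (log2 fold change -0.95, SE 0.22), but the call was lost after the correction (-0.46, SE 0.24) and without siC replicate 1, siC replicate 3, siI3 replicate 1 or siI3 replicate 2. SERPINE2 had 20.03, 24.1 and 27.4 FPM in siI1, overlapping siC, and 29.2, 28.5 and 41.0 FPM in siI2, all above siC. Neither passed the test, at -0.12 and 0.32 (SE 0.22 each), and the corrected values, 0.35 and 0.82 (SE 0.24 each), did not pass either.

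Counted over the 6 genes, siI1 against siC called 3 lower (SERPINB2, SERPINB7 and PLAT) and none higher, where 8.18% of all genes tested were called, 3.77% higher and 4.42% lower. The comparison of siI2 with siC called SERPINB2 lower and no other of the 6 genes, where 1.51% of all genes were called, 0.573% higher and 0.936% lower. The comparison of siI3 with siC called PLAU, PLAT, SERPINE2 and SERPINB7 lower, where 10.6% of all genes were called, 2.3% higher and 8.29% lower. The median log2 fold change over the 6 genes was -0.68 in siI1, -0.46 in siI2 and -1.26 in siI3, beside -0.05, -0.09 and -0.05 over all genes tested. Nothing is read from these counts and medians, because the same comparisons chose the genes, and the 3 comparisons share their siC libraries. Of the 4 genes called in siI3, 2 were called without siC replicate 1 or siC replicate 3, PLAU and PLAT. In the authors' deposited table, SERPINB2 had a log2 fold change of -3.18 in siI1 and -1.35 in siI2, SERPINB7 stood at -1.63 in siI3, and SERPINE2 at -0.99 in siI3. The authors' FDR was under 0.05 for SERPINB2 in both knockdowns, for PLAT and SERPINB7 in siI1, and for PLAU and PLAT in siI3. It was over 0.05 for SERPINB7 and SERPINE2 in siI3, so neither passed at that threshold in the authors' test.

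**Figure D2:**
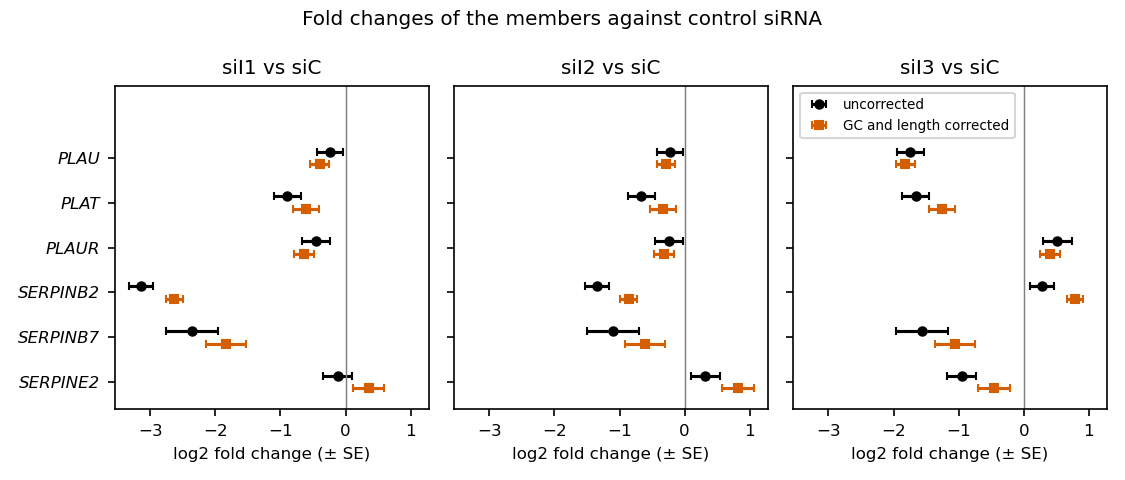
Log2 fold changes against siC (x axis, log2(FPM + 1) scale) of the 6 genes (y axis) in siI1, siI2 and siI3, without correction (black circles) and after correction for GC content and transcript length (orange squares); bars are the standard error of the fit. The correction moved SERPINB2, SERPINB7 and SERPINE2 to higher values in each panel, SERPINB2 in siI1 to -2.63, against -3.14 without it.

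The knockdowns were also compared with each other. The siC levels do not enter these differences, but the siC libraries still shared in the estimate of the spread behind the SE and the calls. Between siI1 and siI3, 5 of the 6 genes were called. PLAU, PLAT and SERPINE2 were higher in siI1 than in siI3, with log2 differences of 1.502 (SE 0.20), 0.76 (SE 0.21) and 0.83 (SE 0.22). SERPINB2 and PLAUR were lower in siI1, by -3.42 (SE 0.18) and -0.98 (SE 0.22), and SERPINB7 did not pass the test (-0.80, SE 0.40). In this comparison 7.05% of all genes were called, 4.57% higher and 2.47% lower. With 1 library left out at a time, PLAU and SERPINB2 passed in 6 of 6 fits, PLAUR in 3, and PLAT and SERPINE2 in 1 each.

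Between siI2 and siI3, PLAU was higher in siI2 by 1.51 (SE 0.20), SERPINE2 by 1.27 (SE 0.22) and PLAT by 0.99 (SE 0.21), and SERPINB2 was lower in siI2 (-1.62, SE 0.18). PLAUR was also lower in every siI2 library than in any siI3 library, but the difference did not pass the test (-0.76, SE 0.22) unless corrected (-0.72, SE 0.16). Here 2% of all genes were called, 1.26% higher and 0.74% lower. PLAU, SERPINE2 and SERPINB2 passed with each library left out in turn, and PLAT in 3 of 6 fits. With only the 6 siI2 and siI3 libraries in the fit, PLAT was not called and 91 of all genes were called, beside 276 with 12 libraries. Between siI1 and siI2, SERPINB2 was lower in siI1 (-1.79, SE 0.18, called in 6 of 6 fits) and no other of the 6 genes passed, where 2.4% of all genes were called, 1.63% higher and 0.769% lower. SERPINB7 was at -1.26 (SE 0.40) in that comparison and passed only after the correction (-1.23, SE 0.31). The differences of PLAU, PLAT and PLAUR between siI1 and siI2 were -0.01, -0.23 and -0.21, with 95% intervals of -0.44 to 0.42, -0.67 to 0.21 and -0.68 to 0.25.

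Profiles over the 12 libraries were compared by the root mean square difference of log2(FPM + 1), each profile centred on its own mean. Of the 15 pairs, PLAU and PLAT were closest at 0.33, followed by PLAU and SERPINE2 at 0.48 and PLAT and SERPINE2 at 0.50. PLAU and SERPINB2 were farthest apart at 1.80. The neighbouring genes SERPINB2 and SERPINB7 stood at 1.08, since SERPINB7 was low and SERPINB2 was not in siI3. These distances describe the same values that chose the genes.

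Among 2455 candidate genes (mean 5 FPM or higher, SD 0.5 or higher), the 3 nearest to PLAU were AKR1C3 (0.21), SGPL1 (0.25) and MICB (0.32). AKR1C3, a steroid-reducing enzyme, had 10.4, 6.61 and 7.44 FPM in siI3, against 38.2, 28.5 and 31.7 FPM in siC. Nearest to PLAUR were KATNBL1 (0.19), DPP7 (0.19) and PREX1 (0.21), and nearest to PLAT were NGFR (0.26), TPST1 (0.29) and JAGN1 (0.31). Nearest to SERPINE2 were TGFB2 (0.22), IGSF3 (0.30) and CHST4 (0.31). TGFB2, a growth factor of the TGF-beta family, had 8.28, 8.003 and 8.15 FPM in siI3, against 15.1, 14.7 and 15.8 FPM in siC. Nearest to SERPINB2 were CCDC6 (0.48), ARMC4 (0.57) and ANGPT2 (0.67), distances in log2 units from the gene that varied most of the 6 (SD 1.42). Nearest to SERPINB7 were the pseudogene NPM1P27 (0.31), whose reads may come from other copies of its parent gene, the membrane protease MME (0.32) and HSPA13 (0.35).

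To compare the genes with each other, levels were divided by the union of annotated exons (FPM per kilobase), which understates genes with many isoforms. The union was 6618 bases for PLAT, 4457 for PLAUR and 2950 for PLAU. Their longest transcripts had 3462, 1610 and 2658 bases. The order of the genes within a group therefore depends on the length used, and is given for the union only. In siC, PLAT, SERPINB2 and PLAU lay close together at 152 ± 21.3, 144 ± 22.5 and 125 ± 20.4 FPM per kilobase (SD, n = 3). SERPINB7 at 40.5 ± 16.6, PLAUR at 27.9 ± 5.85 and SERPINE2 at 2.92 ± 0.330 FPM per kilobase were lower. The highest of the 6 genes was PLAU at 105 ± 8.81 FPM per kilobase in siI1, PLAU at 107 ± 17.9 in siI2 and SERPINB2 at 173 ± 16.0 in siI3. SERPINB2 stood at 15.9 ± 1.21 FPM per kilobase in siI1, below PLAUR at 20.1 ± 3.09. By group, PLAU ran siC, siI2, siI1 and siI3 from high to low, and only the step to siI3 was free of overlap. PLAT ran in the same order, with overlap only between siI2 and siI1. SERPINB2 ran siI3, siC, siI2 and siI1, with overlap only between siI3 and siC. PLAUR, which ran siI3, siC, siI2 and siI1, and SERPINB7, which ran siC, siI2, siI3 and siI1, overlapped at every step between neighbours. SERPINE2 ran siI2, siC, siI1 and siI3, with overlap only between siC and siI1.

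Ratios within a library do not depend on how libraries were scaled. They can still follow the GC content of the transcripts, at 54.0% for PLAU, 55.7% for PLAUR and 41.0% for SERPINB2. The ratios given here were not corrected for it. The ratio of PLAU to PLAUR per kilobase was 1.02, 0.829 and 0.969 in siI3, against 5.56, 3.94 and 4.20 in siC, while siI1 (4.92 to 5.82) and siI2 (3.84 to 5.50) overlapped siC. The ratio of PLAU to its inhibitor SERPINB2 per kilobase was 7.77, 6.10 and 6.16 in siI1, 2.08, 1.70 and 1.94 in siI2, and 0.265, 0.198 and 0.186 in siI3, against 0.840, 1.14 and 0.690 in siC. No 2 of the 4 groups overlapped in this uncorrected ratio, which was highest in siI1 and lowest in siI3. In siI2 against siC, the correction moved the log2 fold change of SERPINB2 from -1.35 to -0.86 and that of PLAU from -0.23 to -0.29. Whether the groups stay apart in a corrected ratio was not tested. These ratios are of mRNA, were built from genes chosen for their changes, and were not tested.

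**Figure D3:**
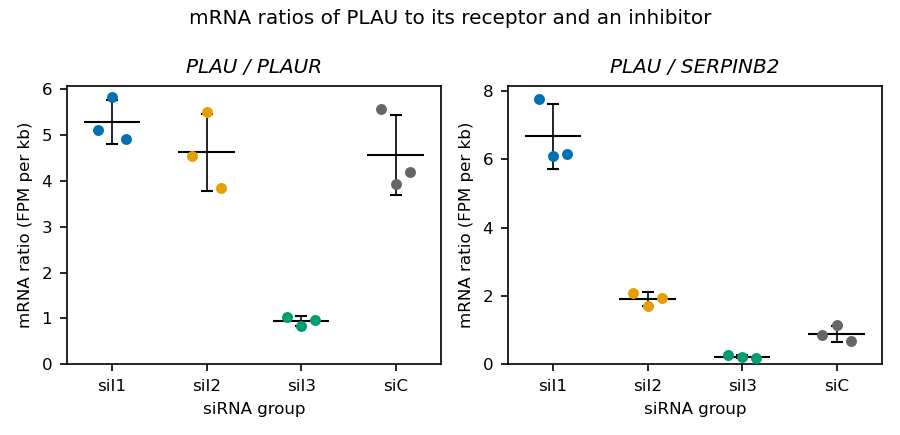
mRNA ratios within each of the 12 libraries (FPM per kilobase of exon, linear axes from 0), PLAU over PLAUR (left) and PLAU over SERPINB2 (right), by siRNA group. Points are libraries, long bars means and whiskers the SD (n = 3); the left ratio is lowest in siI3 at 0.829 to 1.02, and the right ratio is highest in siI1 at 6.10 to 7.77.

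The 4 lists used from here on were chosen with earlier results of these data known. Their shares of called genes and their p-values are therefore a description, and no enrichment is read from them. Among 27 further genes of the plasminogen system, 18 could be tested. In siI1, 3 rose and none fell (16.7% called, median log2 fold change 0.41, beside 8.18% and -0.05 over all genes). They were the urokinase-receptor-associated collagen receptor MRC2, the fibronectin receptor subunit ITGA5 and the clearance receptor LRP1, which takes up complexes of activators with serpins. MRC2 averaged 37.6 ± 8.65 FPM in siI1, 51.7 ± 9.47 in siI2 and 16.4 ± 2.99 in siC (SD, n = 3). Its log2 fold change was 1.14 (SE 0.23, limma adjusted p = 0.00733) in siI1 and 1.597 (SE 0.23, limma adjusted p = 0.00344) in siI2, where it was the only call on this list (5.56%, median 0.23, beside 1.51% and -0.09 over all genes). LRP1 averaged 28.4 ± 1.62 FPM in siI1 and 15.8 ± 2.39 in siC (SD, n = 3; 0.82, SE 0.20, limma adjusted p = 0.0226), and its call was lost after the correction (0.52, limma adjusted p = 0.115). ITGA5 averaged 248.7 ± 28.1 FPM in siI1 and 141 ± 30.4 in siC (SD, n = 3; 0.83, SE 0.22, limma adjusted p = 0.0305). ITGA5 and LRP1 both lost their calls without either of siC replicates 1 and 3 or of siI1 replicates 1 and 3, and MRC2 in siI1 without siI1 replicate 1 (limma adjusted p = 0.0597). In siI3, the lipoprotein receptor LRP8 rose and S100A10, a subunit of a plasminogen-binding complex with annexin A2, fell (11.1% called, near the 10.6% of all genes, median 0.05). S100A10 averaged 5.61 ± 2.19 FPM in siI3 and 20.8 ± 4.74 in siC (SD, n = 3; -1.75, SE 0.42, limma adjusted p = 0.0227), and LRP8 43.9 ± 4.70 in siI3 and 28.4 ± 3.54 in siC (0.61, SE 0.19, limma adjusted p = 0.0487). Both calls in siI3 passed in only 2 of 6 fits with 1 library left out, and were lost without siC replicate 1 or siC replicate 3, among others. The plasminogen gene PLG itself had 6 reads at most in any library, and the plasmin inhibitor SERPINF2 had too few reads to test. The abundant plasminogen-binding proteins ENO1 (2165 ± 578 FPM in siC) and ANXA2 (703 ± 127 FPM in siC) did not pass against siC in any knockdown.

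Of 30 other serpins, 8 could be tested. In siI1, the collagen chaperone SERPINH1 and SERPINF1 rose and SERPINB8 fell (37.5% called, median log2 fold change 0.38, beside 8.18% and -0.05 over all genes). SERPINH1 averaged 773 ± 44.7 FPM in siI1, 627 ± 76.4 in siI2 and 260.2 ± 45.4 in siC (SD, n = 3). Its log2 fold change was 1.58 in siI1 (SE 0.21, limma adjusted p = 0.000414) and 1.27 in siI2 (SE 0.21, limma adjusted p = 0.00711), the only call of this list in siI2 (12.5%, median -0.07, beside 1.51% and -0.09 over all genes). The siI2 call was lost without siC replicate 3 (limma adjusted p = 0.0623) or siI2 replicate 1 (limma adjusted p = 0.0537). SERPINF1 averaged 13.1 ± 2.18 FPM in siI1 and 6.03 ± 1.45 in siC (SD, n = 3; 1.01, SE 0.26, limma adjusted p = 0.0289), a call lost without either of siC replicates 1 and 3 or of siI1 replicates 1 and 3. In siI3, SERPIND1 fell and none rose (12.5% called, near the 10.6% of all genes, median -0.19). SERPIND1, the thrombin inhibitor heparin cofactor II, was at 0.191 ± 0.0580 FPM in siI3 and 2.09 ± 0.702 in siC (SD, n = 3), the siI3 value under the worth of 3 reads. Its call (-1.35, SE 0.39, limma adjusted p = 0.0375) was lost after the correction (limma adjusted p = 0.0582). With 1 library left out it passed in only 2 of 6 fits, and was lost without siC replicate 1 or siC replicate 3, among others.

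SERPINB7 and SERPINB2 are neighbours in a cluster of clade B serpins on chromosome 18. In the order of the RefSeq annotation the cluster runs SERPINB5, SERPINB12, SERPINB13, SERPINB4, SERPINB3, SERPINB11, SERPINB7, SERPINB2, SERPINB10, HMSD and SERPINB8. Of these 11 genes, SERPINB7, SERPINB2 and SERPINB8 were tested, and the other 8 had 23 reads at most in a library, the highest being SERPINB4 in a single siI3 library. SERPINB8 averaged 5.95 ± 1.59 FPM in siI1, 12.1 ± 2.37 in siI2, 16.3 ± 1.69 in siI3 and 16.6 ± 2.03 in siC (SD, n = 3). It fell in siI1 (log2 fold change -1.36, SE 0.24, limma adjusted p = 0.00334), a call that passed with each library left out in turn and after the correction (-0.90, limma adjusted p = 0.0499). It did not pass in siI2 (-0.44, limma adjusted p = 0.294) or siI3 (-0.02, limma adjusted p = 0.962), and it was lower in siI1 than in siI3 (-1.34, SE 0.24, limma adjusted p = 0.00234). SERPINB2 and SERPINB7 were chosen by such differences, so their calls beside that of SERPINB8 are a description, where 4.42% of all genes were called lower in siI1. The clade B serpins SERPINB6 (65.9 ± 12.9 FPM in siI1 and 40.0 ± 4.79 in siC) and SERPINB1 (16.9 ± 1.06 in siI1 and 13.7 ± 1.86 in siC), which lie outside the cluster, did not pass in siI1 (0.70 and 0.29, limma adjusted p = 0.0702 and 0.556).

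**Figure D4:**
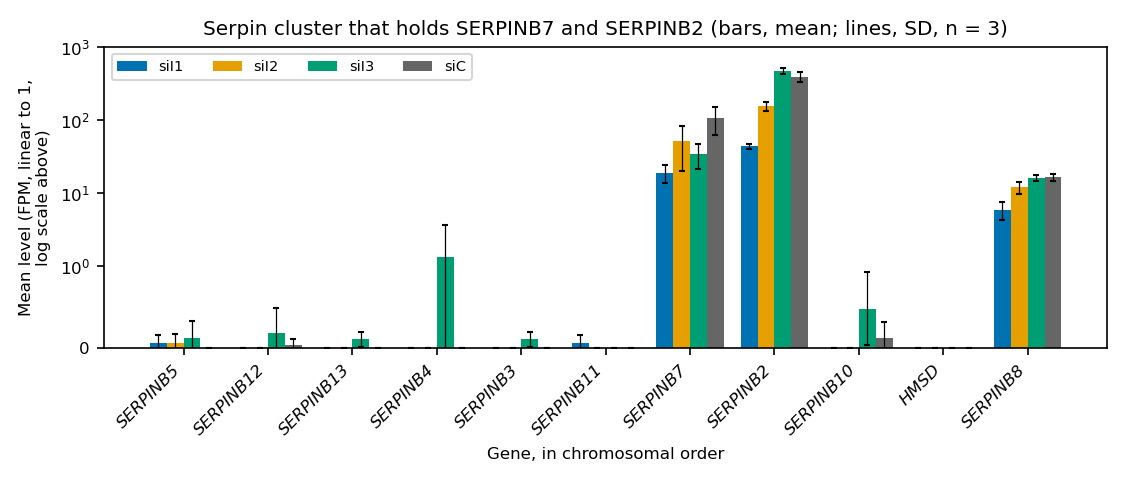
Mean levels (FPM, axis linear from 0 to 1 and log scale above) of the 11 genes of the serpin cluster in chromosomal order, by siRNA group; bars are means and lines the SD (n = 3). SERPINB7, SERPINB2 and SERPINB8 stand above the other 8 genes, and each has its lowest bar in siI1.

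Of 22 genes for proteins that plasmin or urokinase is known to cleave or that carry on the cascade, 17 could be tested. This list, too, was chosen with earlier results of these data known, so its shares are a description. In siI1, 4 rose and 3 fell (41.2% called, median log2 fold change 0.09, beside 8.18% and -0.05 over all genes). In siI2, 2 rose and 1 fell (17.6% called, median -0.09, beside 1.51% and -0.09 over all genes). In siI3, 5 fell and none rose (29.4% called, median -0.37, beside 10.6% and -0.05 over all genes). MMP2, a gelatinase that degrades basement membrane, averaged 285 ± 13.7 FPM in siI1, 142 ± 16.0 in siI2, 15.4 ± 2.53 in siI3 and 67.8 ± 7.15 in siC (SD, n = 3). It rose in siI1 (2.06, SE 0.18, limma adjusted p = 6.2e-06) and siI2 (1.05, SE 0.18, limma adjusted p = 0.00724) and fell in siI3 (-2.07, SE 0.18, limma adjusted p = 3.31e-05), and siI1 exceeded siI3 by 4.13 (limma adjusted p = 8.1e-10). THBS1, the matricellular protein thrombospondin 1, was at 337 ± 24.3 FPM in siI1, 310.0 ± 23.2 in siI2, 54.0 ± 5.60 in siI3 and 142 ± 2.62 in siC (SD, n = 3). It rose in siI1 and siI2 (1.24 and 1.11, limma adjusted p = 0.0004 and 0.00398) and fell in siI3 (-1.39, limma adjusted p = 0.000275). The matrix protein fibronectin, FN1, fell to 51.8 ± 3.40 FPM in siI1 and 59.2 ± 13.4 in siI3, against 134 ± 5.09 in siC (SD, n = 3; -1.35 and -1.19, limma adjusted p = 0.000435 and 0.00241). F2RL1, a receptor that proteases activate by cleavage, had 3.14 ± 0.820 FPM in siI3 and 13.9 ± 0.919 in siC (SD, n = 3; -1.86, limma adjusted p = 0.00347). The thrombin receptor F2R rose in siI1 (0.71, limma adjusted p = 0.0164) and fell in siI3 (-0.76, limma adjusted p = 0.0148), and the second call was lost after the correction (-0.33, limma adjusted p = 0.23). The calls of MMP2 in siI1 and siI3, of THBS1, of FN1 and of F2RL1 passed with each library left out in turn. F2R passed in only 2 of 6 such fits in siI1 and in siI3, and lost both calls without siC replicate 1 or siC replicate 3, among others. MMP2 lost its call in siI2 without siI2 replicate 1 or either of siC replicates 1 and 3.

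The collagenase MMP1 averaged 338 ± 48.5 FPM in siI1 and 1748 ± 363 in siC (SD, n = 3) and fell (-2.36, SE 0.40, limma adjusted p = 0.00234). The stromelysin MMP3 fell in siI2, at 0.439 ± 0.585 FPM against 7.26 ± 2.97 in siC (SD, n = 3, limma adjusted p = 0.00427). The siI2 value lay under the worth of 3 reads, with 6 reads at most in a library. At 2.25 ± 0.589 FPM in siI1 its call (limma adjusted p = 0.0442) was lost under most alternatives. In siI3 every MMP3 library was above siC, at 18.4 ± 8.85 FPM (SD, n = 3), but the difference did not pass (1.19, limma adjusted p = 0.0534). LAMA3, a laminin chain, rose in siI1 (1.16, limma adjusted p = 0.0202), a call lost without siC replicate 3, siI1 replicate 1 or siI1 replicate 3.

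**Figure D5:**
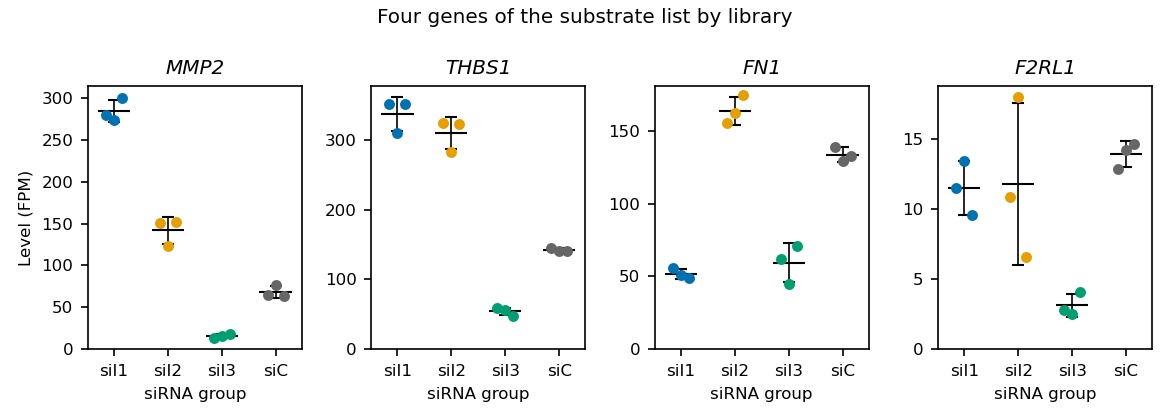
Levels (FPM, linear axes from 0) of MMP2, THBS1, FN1 and F2RL1 in the 12 libraries by siRNA group; points are libraries, long bars means and whiskers the SD (n = 3). MMP2 and THBS1 are above siC in siI1 and siI2 and below it in siI3, FN1 is low in siI1 and siI3, and F2RL1 is low in siI3.

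The last list held 20 transcription factors and receptors known to act upstream of the activator genes, of which 19 could be tested. In siI1 none rose and 3 fell, ETS2, MET and ETV4 (15.8% called, median log2 fold change -0.07, beside 8.18% and -0.05 over all genes). In siI2 ETS2 fell and no other was called (5.26%, median -0.15, beside 1.51% and -0.09 over all genes). ETS2, a factor of the ETS family, averaged 14.2 ± 2.11 FPM in siI1, 18.4 ± 1.11 in siI2, 38.0 ± 8.72 in siI3 and 38.9 ± 5.53 in siC (SD, n = 3). Its log2 fold change was -1.39 in siI1 (SE 0.21, limma adjusted p = 0.00113) and -1.03 in siI2 (SE 0.21, limma adjusted p = 0.0261), and it was lower in siI1 than in siI3 (-1.34, limma adjusted p = 0.000784). The siI1 call passed with each library left out in turn, whereas the siI2 call was lost without siC replicate 1, siC replicate 3, siI2 replicate 1 or siI2 replicate 3. In siI3, the AP-1 subunit genes FOS and FOSB rose, and ATF2, the glucocorticoid receptor gene NR3C1 and MET, the receptor of hepatocyte growth factor, fell (26.3% called, median 0.25, beside 10.6% and -0.05 over all genes). FOS averaged 8.58 ± 2.15 FPM in siI3 and 1.94 ± 0.576 in siC (SD, n = 3; 1.70, SE 0.31, limma adjusted p = 0.00772), and FOSB 5.88 ± 1.70 in siI3 and 1.34 ± 0.175 in siC (1.53, SE 0.28, limma adjusted p = 0.00772). Both were higher in siI3 than in siI1 (limma adjusted p = 0.00125 and 0.000275) and in siI2 (limma adjusted p = 0.000329 and 0.00402). Against siC, FOS and FOSB lost their calls without siC replicate 1 (limma adjusted p = 0.0504 and 0.0544) or siI3 replicate 2, and FOS also without siC replicate 3. MET averaged 66.2 ± 22.9 FPM in siI3, 79.5 ± 20.9 in siI1 and 161 ± 31.0 in siC (SD, n = 3), with log2 fold changes of -1.30 in siI3 (limma adjusted p = 0.0125) and -1.02 in siI1 (limma adjusted p = 0.0289). ATF2 averaged 8.35 ± 4.28 FPM in siI3 and 25.8 ± 5.70 in siC, NR3C1 12.6 ± 2.76 in siI3 and 34.2 ± 8.69 in siC, and ETV4 18.5 ± 1.11 in siI1 and 34.3 ± 12.7 in siC (SD, n = 3), with log2 fold changes of -1.59, -1.36 and -0.80 (limma adjusted p = 0.0192, 0.014 and 0.0397). The calls of MET in siI1 and siI3, and of ATF2 and NR3C1 in siI3, each passed in only 2 of 6 fits with 1 library left out. The fits without siC replicate 1 and without siC replicate 3 were among those that lost them. The call of ETV4 in siI1 was lost whichever 1 of the 6 libraries was left out. The more abundant AP-1 genes JUN, FOSL1 and FOSL2 averaged 277 ± 78.1, 248 ± 32.2 and 139 ± 24.2 FPM in siI3, against 185 ± 27.9, 213 ± 55.3 and 91.8 ± 14.1 FPM in siC (SD, n = 3), and none was called against siC.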

How the data were processed

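Total RNA from 12 ES-2 libraries was depleted of ribosomal RNA and sequenced, per the labels' protocols. Per the submitters' processing notes, cutadapt 1.6, TopHat2 2.0.13, featureCounts 1.4.6, edgeR 3.12 and the hg19 build were used; the sources used here give no annotation, filters or strand use. The deposited table holds FPM per library, a depth-normalised signal, per the file headers, and the authors' log2 fold changes with an FDR, an adjusted p-value. FPM values were whole multiples of 1 read (100% within 0.01), so read counts were recovered from the deposited values and used to filter genes (edgeR 4.0.16 filterByExpr, minimum count 10) and for the count tests. Groups came from the sample titles. Values on the log2(FPM + 1) scale, on which changes of low genes are understated, were tested with limma 3.58.1 (trended prior variance, 1 coefficient per group, 12 libraries), with Benjamini-Hochberg adjustment over 13782 genes. Calls had an adjusted p under 0.05. The test was checked on 3 simulated sets. The correction subtracted from each library a loess surface (span 0.5) over GC content and transcript length, for 13361 genes (96.9%). The 92 spike-ins were left out, and 438 names with a number suffix were matched by identifier. Spike-in reads numbered 174224 to 193703 in the siC libraries and 24770 to 99637 in the knockdown libraries, without overlap. Total reads overlapped, at 6512429 to 11304060 in siC and 3299360 to 8277786 in the knockdowns. Fold changes compare depth-normalised levels, and whether the amount of RNA per culture differed was not tested.

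The 6 genes, the 4 lists and the motifs were chosen with earlier results of these data known. Genes named from a list were those called against siC, up to 5 a list and comparison by size of fold change. LAMA3, F2R in siI1, MMP3 in siI3, ENO1, ANXA2, PLG, SERPINF2, SERPINB1, SERPINB6, JUN, FOSL1 and FOSL2 were added after their values were seen. Alternatives were other pseudocounts (0.25 and 4), filters, scaling factors and tools (edgeR, and DESeq2 1.42.0 in R 4.3.3), only the 6 libraries compared, the replicate number as a block, the correction, and each library left out in turn. A few genes of the lists are not reported here and were left out of the list counts.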

Additional observations from a re-analysis of the deposited data

How the results depend on the processing

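Which of the 6 genes passed the test depended on the control libraries and the GC correction more than the direction did. Of 576 recomputed fold changes, 36 under 16 alternatives each, 567 stayed within the spread of the main values, 9 moved further, all under the correction, and none that was called changed sign. Against siC, PLAU and PLAT in siI3, SERPINB2 and SERPINB7 in siI1, and SERPINB2 in siI2 passed with each library left out in turn. These passes describe how steady the values were and do not test the genes, which the same libraries chose. Too few reads to pass the filter leave most of the chromosome 18 cluster and PLG without a comparison. The floor of 3 reads covers counting error only, while the intervals cover only the spread among these libraries.

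The count of all genes called moved by over 1.5 times with the filter, the tool, the libraries used and the correction, which bears on each percentage given beside the 6 genes. In siI1 against siC 1128 genes were called, and 533 with no filter beyond 1 read in 3 libraries, 2031 by DESeq2, 2039 with only the 6 libraries compared, and 268 to 2602 with 1 library left out. In siI2 against siC, 208 were called, and 88, 730, 37 and 28 to 1572 in the same order of settings. In siI3 against siC, 1460 were called, and 543 with no filter, 2318 by DESeq2, 909 after the correction, and 89 to 2824 with 1 library left out. The lowest counts in siI1 and siI3 came without siC replicate 1 and in siI2 without siC replicate 3, and the highest counts came without siC replicate 2. In siI1 against siI2, 331 were called, and 203 with no filter, 554 by DESeq2, 654 after the correction and 127 to 243 with 1 library left out. In siI1 against siI3, 971 were called, 1562 after the correction and 546 to 1223 with 1 library left out. In siI2 against siI3, 276 were called, and 157 with no filter, 557 by DESeq2, 91 with only the 6 libraries compared, 529 after the correction and 112 to 410 with 1 library left out. The cause of these moves was not tested. With other scaling factors (RLE) the share of higher genes among those called came to 56.6% for siI1, 60.1% for siI2 and 34.4% for siI3, each against siC, where it was 46%, 38% and 21.7% with the scaling used throughout.

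With the replicate number as a block, 696, 95 and 745 genes were called in siI1, siI2 and siI3 against siC, and 244, 807 and 192 in siI1 against siI2, siI1 against siI3 and siI2 against siI3. Nothing in the labels says that a number marks a shared culture or day. Deviations of same-numbered libraries correlated at -0.455 to 0.447 over 18 pairs, 7 of them over 0.1, and 1 of 12 libraries correlated best with its own number, so the numbers were not taken as pairs. Under the block, SERPINB7 in siI3 was not called.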

Other observations

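CDH5, the cadherin of endothelial cells, was on the marker list as a gene that this culture should lack, yet it averaged 140 FPM in siI1, 114 in siI2, 101 in siI3 and 60.5 in siC, and lay at 54.8 FPM or more in each of the 12 libraries. The other endothelial marker measured, VWF, had 15 reads at most. SERPINB4, which had no read in siI1, siI2 or siC, reached 23 reads in a single siI3 library. Its near-identical neighbour SERPINB3 had 1 read at most, so the counts of both are uncertain. C10orf55, on the opposite strand of PLAU, averaged 14.4 FPM in siI1 and 6.59 FPM in siC, while PLAU averaged 311 FPM in siI1 and 369 FPM in siC.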
